A study of Homo sapiens with 6 samples.

Results

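The enzymes that write and remove acetyl and methyl groups on histones were compared between HCT116 cells negative and positive for the fluorescence of ZsGreen. They were taken as every row whose symbol is KDM, HDAC, SIRT, KAT, SETD, PRMT or SMYD followed by a number and at most 1 letter, leaving out KDM5D. This gave 66 of the 26255 genes in the tables, namely 18 KDM, 11 HDAC, 7 SIRT, 7 KAT, 10 SETD, 5 SMYD and 8 PRMT genes. HCT116 is an established line of human colorectal carcinoma cells. By the series title, the cells had been transduced with the degron of ornithine decarboxylase, which directs proteins to the proteasome, and the libraries are labelled by ZsGreen, a green fluorescent protein. Poly(A)-selected RNA was sequenced in 3 ZsGreen-negative libraries, here called negative, and 3 ZsGreen-positive libraries, here called positive. Both groups come from the same line, and the labels name no treatment, time or clone. Nothing says that the libraries of a group were separate cultures, so a p-value here reflects the spread among them, which may be technical.

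Lysine acetyltransferases (KAT) place acetyl groups on histone tails, which loosens the contact of the tail with DNA, and deacetylases (HDAC, and the NAD-dependent sirtuins, SIRT) take them off. Most proteins with a SET domain (SETD and SMYD) methylate lysines, PRMT enzymes methylate arginines, and KDM enzymes remove methyl groups from lysines. KDM1 enzymes do so with FAD, while the other KDM enzymes here carry a JmjC domain that needs iron, oxygen and 2-oxoglutarate. Many of these enzymes also act on other proteins and work as parts of larger complexes.

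Values are FPKM, as deposited, a read density that in its usual form divides the fragments of a gene by its transcript length and the library's total. Each mean is given with its SD over 3 libraries, the negative mean first. Each log2 fold change, positive minus negative, is given with its SE and was computed on log2(FPKM + 1), which understates the change of low genes. Adjusted p-values come from limma over all 12213 genes that averaged at least 1 FPKM. A gene is said to have risen or fallen, or to have passed, where the adjusted p was under 0.05.

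The tables give no read counts. The size of a single fragment was read from low values of genes with 1 annotated transcript. If FPKM was divided by each library's own total, this size implied 9420000 to 9740000 fragments per negative library and 12100000 in positive replicate 1. How libraries were scaled is not known, so these are not measured depths. Positive replicates 2 and 3 stood apart: their estimates of 12900000 and 13700000 rest on only 9 and 7 genes at 1 fragment, and 11624 and 11989 genes were listed at 0, against 10314 in positive replicate 1 and 8985 to 9162 in the negative libraries. The median SD of the log2 values of the tested members was 0.17 among positive and 0.067 among negative libraries. The epithelial markers EPCAM, CDH1, KRT8, KRT18, KRT19 and CDX2 were above 1 FPKM in every library, while VIL1, CDH17, LGALS4 and TSPAN8 stayed under it. Several of them moved with the groups: CDH1 (49.8 ± 0.455 against 17.4 ± 1.42 FPKM), KRT8 (1518 ± 23.5 against 1152 ± 63.1 FPKM) and KRT18 (1505 ± 20.3 against 955 ± 90.2 FPKM) fell, EPCAM (129 ± 3.86 against 147 ± 7.75 FPKM) and CDX2 (4.47 ± 0.355 against 6.99 ± 1.15 FPKM) rose, KRT19 did not pass, and the 10 epithelial markers summed to 4243 to 4310 against 3146 to 3578 FPKM. Of 15 markers of fibroblasts, leukocytes and endothelium, 14 stayed under 1 FPKM in every library, COL1A1 being the exception (2.102 ± 0.113 against 0.865 ± 0.266 FPKM). The fibroblast markers COL1A2, DCN and LUM and the leukocyte marker CD3E were listed at 0 throughout. Summed markers ranged from 2.35 to 2.50 against 0.731 to 1.19 FPKM for fibroblasts, 0.116 to 0.236 against 0 to 0.0741 FPKM for leukocytes and 0.107 to 0.142 against 0.171 to 0.310 FPKM for endothelium. Genes of dividing cells were higher in positive libraries, with TOP2A, a DNA topoisomerase, at 5.998 ± 0.1499 against 39.3 ± 3.99 FPKM and MKI67, which encodes Ki-67, at 2.34 ± 0.190 against 8.61 ± 0.861 FPKM. The part of these differences in the results on chromatin enzymes was not tested.

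Histone demethylases with a JmjC domain were mostly lower in positive cells, while KDM1A, the arginine methyltransferases PRMT1, PRMT5 and PRMT7, the class I deacetylases HDAC2 and HDAC3 and the acetyltransferase KAT2A were higher. KDM3A had the largest fall (3.41-fold by the group means) and KAT2A the largest rise (2.66-fold). In bulk RNA, fewer cells of a kind and less RNA per cell cannot be told apart. Of the 59 members that averaged at least 1 FPKM, 17 rose, 16 fell and 26 did not pass the test. The share called, 55.9%, was near the 59.4% of all tested genes (29.4% higher and 30.0% lower). The counts of the single families given further on are small and stand beside those shares of all tested genes. For the 59 members together, sizes were compared as well. The median log2 fold change of the 59 members was -0.057 and the median size of the change 0.43, against 0.004 and 0.48 over all tested genes. Changes of at least 2-fold on this scale were called for 6 members, 3 higher and 3 lower (10.2%), against 17.8% of all tested genes (9.48% higher and 8.34% lower). The groups did not overlap for 41 members (69.5%), 20 with all positive libraries above and 21 with all below, against 67.6% of all tested genes (33.2% above and 34.5% below).

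Rescaling every library to a sum of 1000000 moved the median log2 fold change of all genes to 0.14, and then 19 members rose and 12 fell, with 62.1% of all called genes higher against 49.5% in the deposited values. HDAC5, KDM6A, SETD3 and SIRT1 were no longer called as lower after this rescaling. With positive replicates 2 and 3 left out, the lone positive library shows no spread of its own, so only effect sizes are given. The median log2 fold change of the tested members was then -0.029 in place of -0.057. That of KDM6A was -0.36 in place of -0.45, and that of PRMT6 0.62 in place of 0.61.

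**Figure D1:**
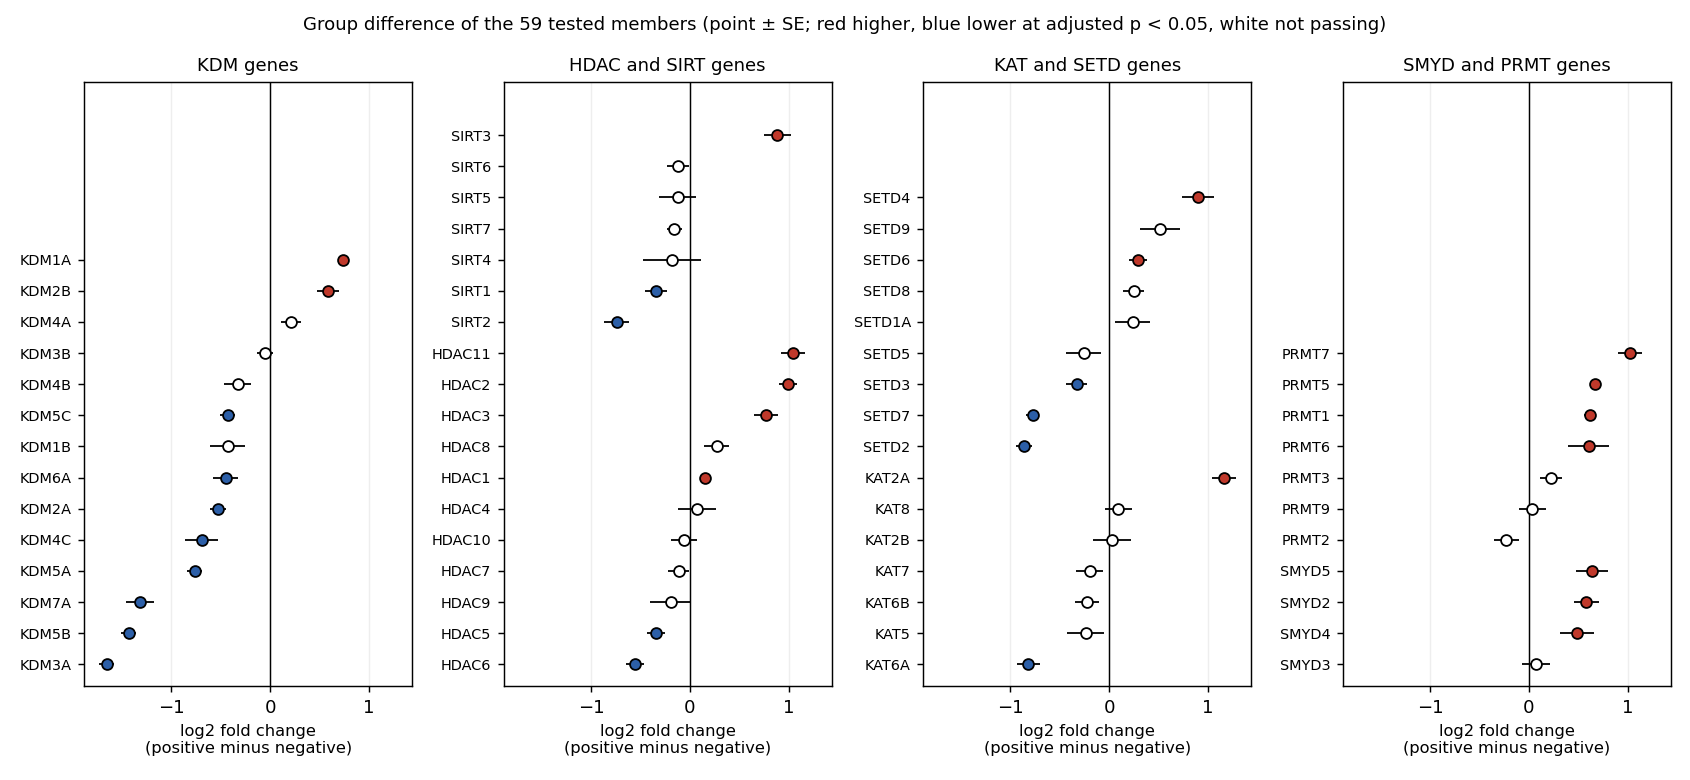
Log2 fold change (x axis, positive minus negative, on log2(FPKM + 1)) of each of the 59 tested members (rows), with bars for the SE. Red points passed the test as higher (17 members, among them HDAC1, whose sign turns with quantile normalisation and with the length trend removed) and blue points as lower (16 members); the panel of KDM genes holds 8 of the falls and the panel of SMYD and PRMT genes none.

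Promoter sequence was matched by symbol for 60 of the 66 members in RefSeq (GRCh38.p14), a later build than the hg19 named for the deposited values. The 250 bases upstream of an annotated start are shown for the 2 largest falls, KDM3A and KDM5B, and for the acetyltransferase and the methyltransferase with the largest rises, KAT2A and PRMT7. Capitals mark the core letters of the hypoxia response element (ACGTG or GCGTG, on either strand), searched because KDM3A is a known target of the hypoxia-inducible factors.
KDM3A, chr2:86441121-86441370, plus strand: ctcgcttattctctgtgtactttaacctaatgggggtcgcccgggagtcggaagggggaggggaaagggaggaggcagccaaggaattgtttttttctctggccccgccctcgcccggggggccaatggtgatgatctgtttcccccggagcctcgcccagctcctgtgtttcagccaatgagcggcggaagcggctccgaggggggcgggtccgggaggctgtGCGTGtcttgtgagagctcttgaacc
KDM5B, chr1:202808422-202808671, minus strand: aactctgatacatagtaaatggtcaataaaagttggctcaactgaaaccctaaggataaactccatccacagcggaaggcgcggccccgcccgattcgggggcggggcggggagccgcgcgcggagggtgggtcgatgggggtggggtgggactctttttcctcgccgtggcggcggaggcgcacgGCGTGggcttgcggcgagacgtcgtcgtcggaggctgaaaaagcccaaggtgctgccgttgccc
KAT2A, chr17:42121368-42121617, minus strand: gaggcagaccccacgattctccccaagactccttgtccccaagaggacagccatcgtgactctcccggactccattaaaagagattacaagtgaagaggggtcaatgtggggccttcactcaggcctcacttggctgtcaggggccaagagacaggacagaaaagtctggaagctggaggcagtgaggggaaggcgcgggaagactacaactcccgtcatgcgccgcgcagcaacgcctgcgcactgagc
PRMT7, chr16:68310769-68311018, plus strand: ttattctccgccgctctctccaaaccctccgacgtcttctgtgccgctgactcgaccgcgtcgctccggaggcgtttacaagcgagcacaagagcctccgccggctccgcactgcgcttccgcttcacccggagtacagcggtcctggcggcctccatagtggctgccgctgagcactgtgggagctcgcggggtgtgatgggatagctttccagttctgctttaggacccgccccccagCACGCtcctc
The stretches of KDM3A, KDM5B, KAT2A and PRMT7 hold 1, 1, 0 and 1 matches. These letters are common: 56.8% of 15843 protein-coding genes hold them in the window of at least 1 annotated start. Among members with a sequence, 12 of the 14 that fell, 10 of the 17 that rose and 17 of the 24 that did not pass hold them, and 70% of all 60. The share of protein-coding genes is not limited to genes tested here. The E-box CACGTG, which contains the first of these cores, was found in 3 of the 14, 2 of the 17 and 4 of the 24, against 9.73% of protein-coding genes. The E2F letters TTTGGCGC or TTTCCCGC, on either strand, were found in 0, 1 and 2 of these, against 3.18%. A match is a description of the sequence and shows no binding.

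The 7 members under the filter were KDM4D, KDM4E, KDM6B, KDM8, PRMT8, SETD1B and SMYD1. KDM4E and PRMT8 were listed at 0 in every library, and SMYD1, a gene of heart and skeletal muscle, at 0 in all but negative replicate 3. KDM6B, a demethylase of H3K27, ranged from 0.857 to 1.15 FPKM in negative and from 0.169 to 0.943 FPKM in positive libraries, which overlap. KDM4D, KDM8 and SETD1B ranged over all libraries from 0.234 to 1.24, 0.389 to 1.41 and 0.614 to 0.865 FPKM. Just inside the filter lay SETD1A with 0.951 ± 0.129 against 1.31 ± 0.291 FPKM and HDAC9 with 1.24 ± 0.181 against 0.980 ± 0.405 FPKM.

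Of the 12 tested JmjC demethylases, 8 fell, 1 rose and 3 did not pass, where 30.0% of all tested genes fell and 29.4% rose. The median log2 fold change of these 12 was -0.49, against 0.004 over all tested genes. Without positive replicates 2 and 3 the median of these 12 was -0.37. With the trend over transcript length removed, described further on, 7 fell and 2 rose, and the median was -0.27. Their summed FPKM was 190.1 ± 2.41 against 125 ± 4.43. KDM3A, a demethylase of mono- and dimethylated H3K9 and a known target of hypoxia-inducible factors, stood at 27.9, 26.9 and 28.8 FPKM in the negative libraries and at 8.69, 7.97 and 7.89 FPKM in the positive ones. The groups lay far apart (log2 fold change -1.65 ± 0.0763, adjusted p = 3.93e-06). Its printed upstream stretch holds 1 match to the hypoxia response core. CA9, another known target of those factors, was low in both groups (0.256 ± 0.0819 against 0.617 ± 0.366 FPKM). It lay under the filter and was not tested. Its values of 0.204, 0.214 and 0.351 against 0.387, 0.426 and 1.04 FPKM did not overlap and ran in the direction opposite to KDM3A. KDM3B, the closest relative of KDM3A, had 18.99 ± 0.372 against 18.3 ± 1.37 FPKM and did not pass (adjusted p = 0.577).

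The KDM5 enzymes remove methyl groups from H3K4, a mark of active promoters, and KDM5A, KDM5B and KDM5C all fell. KDM5B stood at 32.9, 33.8 and 31.3 FPKM in the negative libraries and at 10.6, 11.5 and 12.3 FPKM in the positive ones (log2 fold change -1.43 ± 0.0790, adjusted p = 7.94e-06). Every positive library thus held less than every negative one, 2.85-fold lower by the means. KDM5A had 15.7 ± 0.341 against 8.81 ± 0.518 FPKM (log2 fold change -0.77 ± 0.0803, adjusted p = 0.000160) and KDM5C 17.9 ± 0.532 against 13.02 ± 0.769 FPKM (log2 fold change -0.43 ± 0.0774, adjusted p = 0.00228). KDM7A, a demethylase of H3K9 and H3K27, had 8.66, 8.82 and 8.501 FPKM against 3.45, 3.03 and 2.22 FPKM (log2 fold change -1.32 ± 0.140, adjusted p = 0.000170), again with all positive libraries below.

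The other falls in this group were smaller. KDM2A, which acts on H3K36, had 14.2 ± 0.0520 against 9.56 ± 0.620 FPKM (adjusted p = 0.00105), and KDM4C, which acts on H3K9 and H3K36, had 12.5 ± 0.847 against 7.49 ± 1.94 FPKM (adjusted p = 0.00947). For KDM4C the log2 fold change was -0.69, and -0.37 without positive replicates 2 and 3. KDM6A, the H3K27 demethylase also called UTX, had 7.32 ± 0.759 against 5.09 ± 0.655 FPKM (adjusted p = 0.0173), and lost its call without negative replicate 1 (adjusted p = 0.0742) or 3 (adjusted p = 0.0784). KDM2B, the relative of KDM2A that recruits a Polycomb complex to CpG islands, was the JmjC gene that rose (4.42 ± 0.248 against 7.13 ± 0.780 FPKM, log2 fold change 0.58 ± 0.113, adjusted p = 0.00339). KDM4A (23.2 ± 1.83 against 27.0 ± 3.06 FPKM) and KDM4B (4.65 ± 0.161 against 3.53 ± 0.649 FPKM) did not pass with all libraries. Without positive replicate 1 KDM4A passed as higher (adjusted p = 0.0297) and KDM4B as lower (adjusted p = 0.0150). Those passes rest on positive replicates 2 and 3. With replicate 1 as the only positive library the log2 fold changes were 0.039 and -0.11, in place of 0.21 and -0.33.

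KDM1A, the FAD-dependent H3K4 demethylase LSD1 and the most abundant KDM transcript in both groups, moved the other way. It stood at 66.8, 64.2 and 65.8 FPKM in the negative libraries and at 111, 113 and 107 FPKM in the positive ones, without overlap (log2 fold change 0.74 ± 0.0538, adjusted p = 2.73e-05). KDM1A made up 24.9% ± 0.456 of the summed FPKM of the KDM genes in negative and 45.8% ± 0.363 in positive libraries. KDM1B, the other FAD-dependent enzyme, had 7.88 ± 0.141 against 5.72 ± 1.71 FPKM and did not pass (adjusted p = 0.0690), but passed as lower without positive replicate 1 (adjusted p = 0.00361). That pass rests on positive replicates 2 and 3. With replicate 1 as the only positive library the log2 fold change was -0.043, in place of -0.43.

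**Figure D2:**
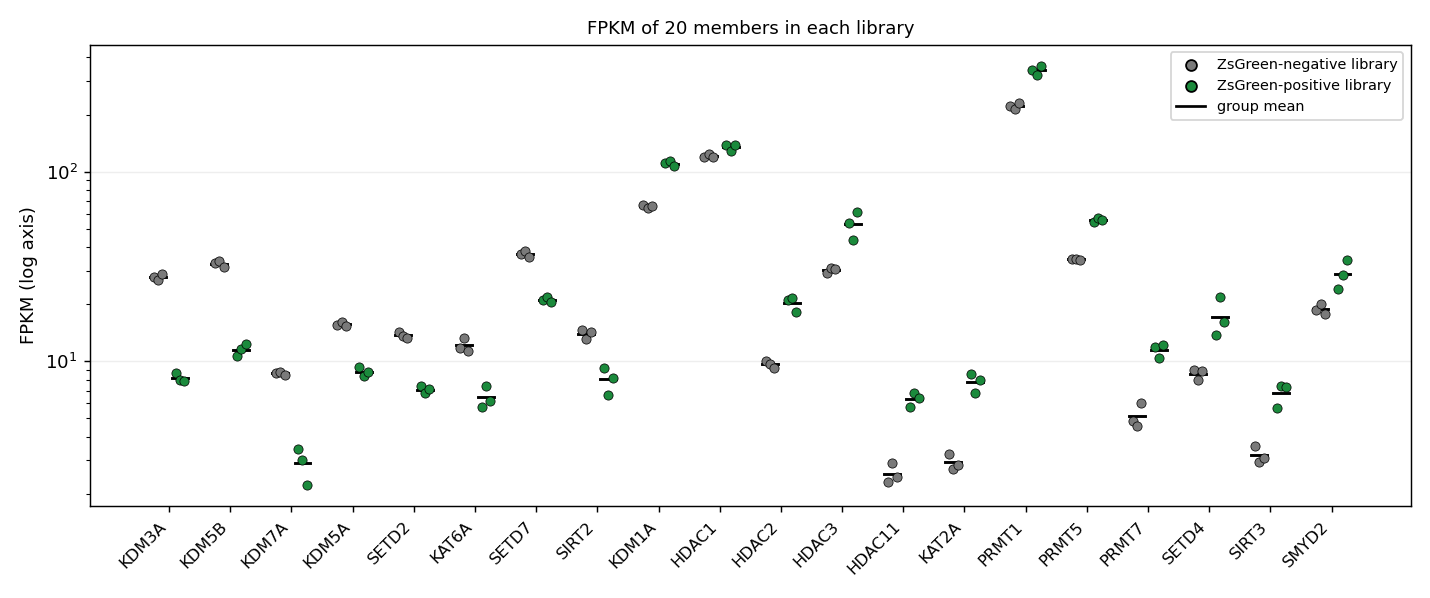
FPKM (y axis, log scale) of 20 members in each of the 3 negative (grey) and 3 positive (green) libraries, with a bar at each group mean. KDM3A, KDM5B, KDM7A and KDM5A lie lower in every positive library and KDM1A higher, while the groups of HDAC1 are only just apart (121 ± 2.71 against 135 ± 5.25 FPKM).

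Of the 11 classical deacetylases, 4 rose, 2 fell and 5 did not pass, where 29.4% of all tested genes rose and 30.0% fell. Class I holds HDAC1, HDAC2 and HDAC3, enzymes of the corepressor complexes, and HDAC8, and 3 of these 4 members rose. HDAC2 had 9.65 ± 0.397 against 20.3 ± 1.83 FPKM, with every positive library above the negative ones (log2 fold change 0.995 ± 0.0909, adjusted p = 8.04e-05). HDAC3, the catalytic subunit of the NCoR and SMRT corepressors, had 30.3 ± 1.12 against 52.8 ± 9.12 FPKM (log2 fold change 0.77 ± 0.122, adjusted p = 0.00125). HDAC1, the most abundant of them, was at 120.0, 124 and 119 FPKM in the negative libraries and at 138, 129 and 138 FPKM in the positive ones. Its groups did not overlap, but the rise was small (log2 fold change 0.16 ± 0.0551, adjusted p = 0.0399). The call was lost without any 1 library other than positive replicate 2 (adjusted p of 0.0519 to 0.151 in those 5 fits), and its sign turned with quantile normalisation (-0.059) and with the trend over transcript length removed (-0.0089). HDAC8 had 10.7 ± 1.45 against 13.2 ± 1.59 FPKM and did not pass with all libraries (adjusted p = 0.0989), but passed as higher without positive replicate 1 (adjusted p = 0.0441). With that replicate as the only positive library its log2 fold change was 0.097, in place of 0.27.

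HDAC11, the single class IV enzyme, showed the largest rise of the deacetylases. Its values were 2.30, 2.90 and 2.46 FPKM against 5.76, 6.84 and 6.37 FPKM, with all positive libraries well above (log2 fold change 1.04 ± 0.124, adjusted p = 0.000294). HDAC6, the cytoplasmic class IIb enzyme that deacetylates tubulin, showed the largest fall, with 22.0, 22.8 and 22.7 FPKM against 13.2, 15.5 and 16.5 FPKM (log2 fold change -0.55 ± 0.0928, adjusted p = 0.00160). The class IIa enzymes shuttle between nucleus and cytoplasm and have little catalytic activity of their own. Of these 4, HDAC5 fell (10.9 ± 0.626 against 8.39 ± 0.642 FPKM, adjusted p = 0.0157), a call lost without negative replicate 1 (adjusted p = 0.0721) or 3 (adjusted p = 0.0755). HDAC4 (2.01 ± 0.0794 against 2.23 ± 0.739 FPKM), HDAC7 (5.21 ± 0.181 against 4.76 ± 0.412 FPKM) and HDAC9 did not pass, nor did the class IIb gene HDAC10 (3.53 ± 0.212 against 3.37 ± 0.486 FPKM).

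Of the 7 sirtuins, 1 rose, 2 fell and 4 did not pass, where 29.4% of all tested genes rose and 30.0% fell. SIRT3, the main deacetylase of the mitochondrial matrix, was at 3.59, 2.95 and 3.08 FPKM in the negative libraries and at 5.63, 7.44 and 7.36 FPKM in the positive ones (log2 fold change 0.89 ± 0.137, adjusted p = 0.00110). SIRT2, a mainly cytoplasmic tubulin deacetylase, moved in the other direction, with 14.6, 13.1 and 14.3 FPKM against 9.25, 6.60 and 8.20 FPKM (log2 fold change -0.74 ± 0.124, adjusted p = 0.00162). Neither gene overlapped between the groups. SIRT1, the nuclear enzyme that deacetylates p53 and histones, had 9.53 ± 0.641 against 7.34 ± 0.922 FPKM (adjusted p = 0.0321). Its fall was lost without any 1 library other than positive replicate 2 (adjusted p of 0.0583 to 0.127 in those 5 fits).

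The mitochondrial SIRT4 (2.60 ± 0.690 against 2.28 ± 1.23 FPKM) and SIRT5 (5.18 ± 0.508 against 4.78 ± 1.48 FPKM) overlapped between the groups and did not pass with all libraries, and SIRT5 passed as lower without positive replicate 2 (adjusted p = 0.0472). SIRT7, a nucleolar enzyme and the most abundant sirtuin transcript over all libraries, had 15.7, 14.2 and 14.6 FPKM against 13.7, 12.9 and 12.9 FPKM, apart but not passing (adjusted p = 0.119). SIRT6, which acts on telomeric chromatin, had 11.8 ± 0.429 against 10.8 ± 1.54 FPKM and passed as lower without positive replicate 3 (adjusted p = 0.0404).

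Among the 7 acetyltransferases, KAT2A rose, KAT6A fell and 5 did not pass, where 29.4% of all tested genes rose and 30.0% fell. KAT2A, the GCN5 enzyme of the SAGA coactivator complex, was at 3.25, 2.71 and 2.83 FPKM in the negative libraries and at 8.59, 6.81 and 7.98 FPKM in the positive ones, far apart (log2 fold change 1.16 ± 0.124, adjusted p = 0.000173). KAT2B, its paralogue PCAF, was low and overlapped (1.28 ± 0.241 against 1.34 ± 0.388 FPKM, adjusted p = 0.913). KAT6A, the MOZ enzyme, was at 11.8, 13.3 and 11.3 FPKM against 5.75, 7.41 and 6.19 FPKM, with no overlap (log2 fold change -0.82 ± 0.116, adjusted p = 0.000710). Its paralogue KAT6B had 3.61 ± 0.101 against 2.96 ± 0.340 FPKM and did not pass (adjusted p = 0.154). The log2 fold change of KAT6B was -0.22, and -0.25 without positive replicates 2 and 3. KAT7, the HBO1 enzyme and the most abundant of the family, had 28.5, 28.4 and 28.4 FPKM against 28.0, 27.7 and 19.3 FPKM. Positive replicate 3 alone lay far below the rest, and the gene did not pass (adjusted p = 0.252). KAT5, the TIP60 enzyme of the DNA damage response (22.3 ± 0.829 against 19.2 ± 5.30 FPKM), and KAT8, which acetylates H4K16 (19.9 ± 1.52 against 21.5 ± 4.20 FPKM), overlapped between the groups.

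Genes of the SETD group went both ways, with 2 higher, 3 lower and 4 not passing of 9 tested. Of all tested genes 29.4% were higher and 30.0% lower. SETD2, the enzyme that trimethylates H3K36 along transcribed genes, was at 14.2, 13.6 and 13.3 FPKM in the negative libraries and at 7.37, 6.77 and 7.14 FPKM in the positive ones (log2 fold change -0.86 ± 0.0818, adjusted p = 9.59e-05). SETD7, which monomethylates H3K4 and several other proteins, had 36.8 ± 1.17 against 21.1 ± 0.651 FPKM (log2 fold change -0.78 ± 0.0641, adjusted p = 4.99e-05). SETD3, the most abundant of the SETD group and a histidine methyltransferase of actin, had 39.7, 42.6 and 42.3 FPKM against 35.3, 27.6 and 36.3 FPKM. Its groups did not overlap, and its fall (adjusted p = 0.0332) was lost without any 1 of the negative libraries (adjusted p of 0.0632 to 0.0993). Without positive replicate 2, its lowest library, the log2 fold change was -0.21 in place of -0.33.

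SETD4 showed the largest rise of the group, with 8.95, 7.96 and 8.87 FPKM against 13.7, 21.8 and 16.05 FPKM (log2 fold change 0.90 ± 0.161, adjusted p = 0.00222). All positive libraries lay above the negative ones, replicate 2 the highest. SETD6, which methylates the NF-kappaB subunit RelA, had 5.17 ± 0.266 against 6.53 ± 0.0711 FPKM (adjusted p = 0.0313), a rise lost without any 1 negative library (adjusted p of 0.0728 to 0.128). SETD8, the H4K20 monomethyltransferase now named KMT5A (15.5 ± 0.875 against 18.6 ± 2.45 FPKM), and SETD9 (2.65 ± 0.240 against 4.34 ± 1.53 FPKM) did not pass with all libraries and passed as higher without positive replicate 1 (adjusted p = 0.0477 and 0.0346). With that replicate as the only positive library their log2 fold changes were 0.13 and 0.24, in place of 0.25 and 0.52. SETD5 had 11.2 ± 0.153 against 9.43 ± 2.70 FPKM and passed as lower without positive replicate 2 (adjusted p = 0.0147).

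The SMYD genes encode SET domain enzymes with a MYND zinc finger. Of all tested genes 29.4% rose, and of the 4 tested SMYD genes 3 did. SMYD2, a methyltransferase of p53 and the most abundant of them, was at 18.6, 20.1 and 17.7 FPKM in the negative libraries and at 24.0, 28.6 and 34.0 FPKM in the positive ones. No library overlapped (log2 fold change 0.58 ± 0.126, adjusted p = 0.00553), and without positive replicates 2 and 3 the log2 fold change was 0.34. SMYD5 was at 10.7, 9.87 and 11.5 FPKM against 22.6, 15.8 and 14.1 FPKM (log2 fold change 0.64 ± 0.166, adjusted p = 0.0124). Here positive replicate 1 was the highest, and without positive replicates 2 and 3 the log2 fold change was 1.02. SMYD4 had 2.48 ± 0.0476 against 3.93 ± 0.997 FPKM (adjusted p = 0.0432), a rise lost without any 1 library other than positive replicate 2 (adjusted p of 0.0902 to 0.117 in those 5 fits). SMYD3 overlapped between the groups (8.71 ± 1.20 against 9.22 ± 1.44 FPKM).

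Of the 7 tested arginine methyltransferases, 4 rose, 0 fell and 3 did not pass, where 29.4% of all tested genes rose and 30.0% fell. In limma, 0 of the 7 fell at an unadjusted p under 0.05. Their median log2 fold change was 0.61 (0.62 without positive replicates 2 and 3), and their summed FPKM was 319 ± 8.92 against 465 ± 27.5. PRMT1, the main enzyme of asymmetric arginine dimethylation, was the most abundant of all 66 members. It stood at 223, 215 and 231 FPKM in the negative libraries and at 345, 322 and 362 FPKM in the positive ones, without overlap (log2 fold change 0.62 ± 0.0634, adjusted p = 0.000145). PRMT1 made up 70.0% ± 0.700 of the summed FPKM of the family in negative and 73.8% ± 0.154 in positive libraries. With quantile normalisation its log2 fold change was 0.23.

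PRMT5, the main enzyme of symmetric dimethylation, had 34.5 ± 0.225 against 55.6 ± 1.44 FPKM, both groups tight and far apart (log2 fold change 0.67 ± 0.0560, adjusted p = 5.21e-05). PRMT7, a monomethylating enzyme, showed the largest rise of the family, with 4.86, 4.54 and 6.05 FPKM against 11.8, 10.4 and 12.2 FPKM (log2 fold change 1.02 ± 0.124, adjusted p = 0.000322). PRMT6, which methylates H3R2, had 2.37 ± 0.616 against 4.14 ± 1.03 FPKM (adjusted p = 0.0371). Its rise was lost without any 1 library other than positive replicate 2 (adjusted p of 0.0520 to 0.128 in those 5 fits). PRMT2, PRMT3 (10.4 ± 0.673 against 12.4 ± 1.78 FPKM) and PRMT9 (5.76 ± 0.266 against 5.99 ± 1.11 FPKM) did not pass with all libraries. PRMT2 had 37.4 ± 1.95 against 32.1 ± 5.71 FPKM and passed as lower without positive replicate 3 (adjusted p = 0.0235). Without positive replicates 2 and 3, the log2 fold change was -0.22 for PRMT2 (-0.23 with all libraries), -0.24 for PRMT9 (0.037) and 0.44 for PRMT3 (0.23).

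For 19 pairs of related enzymes, the ratio of their FPKM was formed within each library, as a description without a test. The groups did not overlap for 8 ratios with all positive libraries above and 7 with all below, where above or below depends on which gene is placed first. Single genes already did not overlap for 67.6% of all tested genes, and ratios of other gene pairs were not formed, so nothing particular to these pairs is read from the count. KDM3A stood at 1.49, 1.43 and 1.49 times KDM3B in negative and 0.467, 0.409 and 0.470 times in positive libraries, so the more abundant of the pair differed between the groups. The order of KDM5B and KDM5C differed in the same way, with ratios of 1.79, 1.94 and 1.76 against 0.769, 0.940 and 0.945. HDAC1 was 12.0, 12.8 and 12.9 times as high as HDAC2 in negative and 6.56, 5.97 and 7.61 times in positive libraries. The ratio of KDM1A to KDM1B was 8.33 ± 0.242 against 20.4 ± 5.91, and that of KDM2A to KDM2B 3.22 ± 0.196 against 1.35 ± 0.151. KAT2A to KAT2B gave 2.37 ± 0.712 against 6.36 ± 2.85. The ratios of KDM6A to KDM6B, KAT7 to KAT8, SIRT6 to SIRT7 and PRMT1 to PRMT6 overlapped between the groups.

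**Figure D3:**
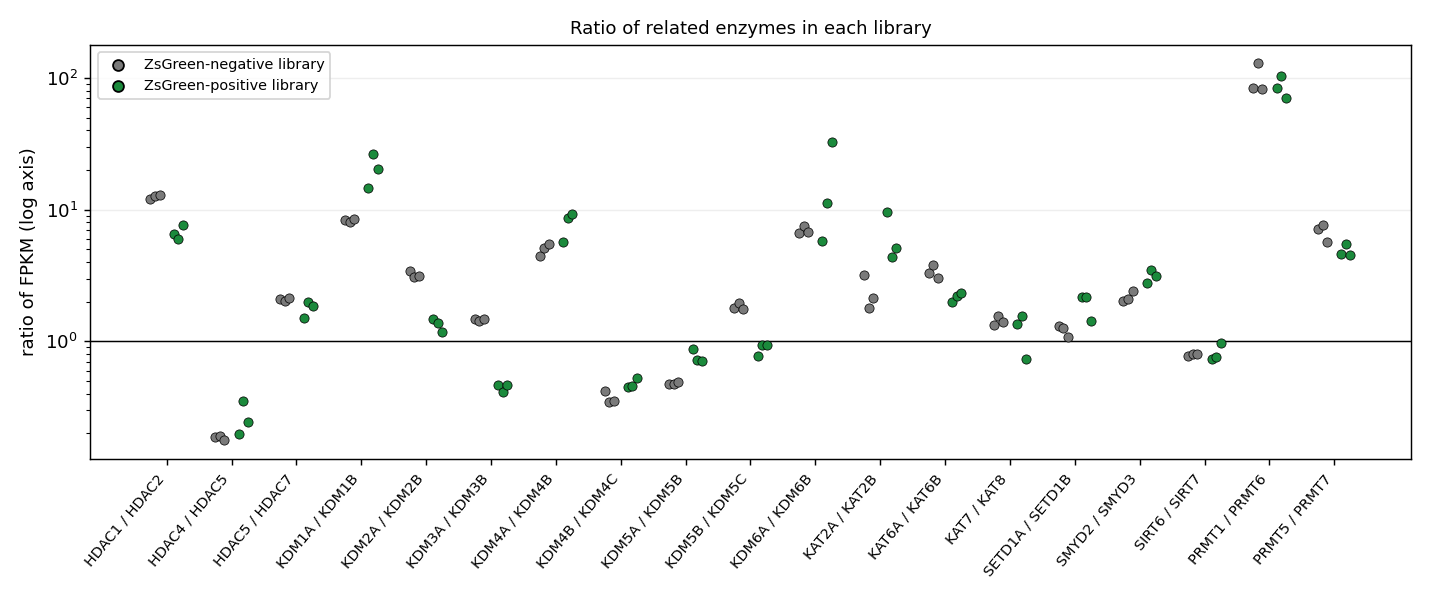
Ratio of FPKM (y axis, log scale) of 19 pairs of related enzymes (x axis, first over second gene) in each negative (grey) and positive (green) library. The line marks a ratio of 1, which KDM3A / KDM3B and KDM5B / KDM5C cross between the groups.

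Partner subunits of these enzymes and related enzymes with other names came from a list of 116 genes, of which 115 were tested. Of these, 32 rose, 44 fell and 39 did not pass, with a median log2 fold change of -0.19. Of all tested genes 59.4% were called, 29.4% higher and 30.0% lower, with a median of 0.004. The counts of the single lists are small and stand beside those shares. The 4 partners of PRMT5 gave 3 rises and 0 falls, with 0 falls also at an unadjusted p under 0.05 in limma. WDR77, the MEP50 subunit bound to PRMT5, had 9.08 ± 0.746 against 22.7 ± 0.143 FPKM (log2 fold change 1.24 ± 0.0826, adjusted p = 1.83e-05). COPRS, which tethers PRMT5 to histones, had 35.6 ± 2.97 against 60.0 ± 12.5 FPKM. Of 12 subunits of the H3K4 methyltransferase complexes, some common to all and some found in only a few of them, 8 rose and 2 fell. WDR5 (7.16 ± 0.352 against 17.3 ± 0.888 FPKM) and MEN1, which encodes menin (5.55 ± 0.490 against 12.8 ± 4.14 FPKM), were among the rises and DPY30 (61.0 ± 2.76 against 40.6 ± 8.55 FPKM) among the falls. Of the subunits common to all these complexes, WDR5 and ASH2L (2.28 ± 0.186 against 3.22 ± 0.326 FPKM) rose and RBBP5 (14.7 ± 1.02 against 11.4 ± 1.74 FPKM) and DPY30 fell.

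Partners of the deacetylases and KDM1A gave 6 rises and 12 falls of 33, where 29.4% of all tested genes rose and 30.0% fell. ING1, a reader of methylated H3K4 in the Sin3 complex, fell (25.9 ± 1.93 against 9.36 ± 0.318 FPKM), as did TBL1XR1 of the NCoR complex (89.6 ± 1.43 against 40.0 ± 0.609 FPKM). HMG20B, a subunit of the KDM1A complex, rose (33.0 ± 0.768 against 64.3 ± 6.91 FPKM). Partners of the acetyltransferases gave 6 rises and 14 falls of 32, with a rise of ING4 (8.92 ± 0.810 against 21.3 ± 4.502 FPKM) and a fall of SUPT7L (15.1 ± 0.377 against 8.59 ± 0.940 FPKM). The 6 acetyltransferases with other names were all called. HAT1, which acetylates newly made H4, rose (19.98 ± 0.994 against 46.3 ± 3.62 FPKM), while the coactivators NCOA3 (26.3 ± 0.361 against 9.40 ± 0.414 FPKM) and EP300 (5.74 ± 0.233 against 2.65 ± 0.812 FPKM), with CREBBP, NCOA1 and NCOA2, fell.

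Of 19 tested genes listed as methyltransferases with other names, 7 rose and 7 fell, beside 29.4% and 30.0% of all tested genes. Being on this list does not show that the product of a gene methylates histones. SUV39H1, an H3K9 methyltransferase of heterochromatin, rose (1.24 ± 0.154 against 4.54 ± 0.265 FPKM, log2 fold change 1.31 ± 0.1303), as did CARM1, an arginine methyltransferase also known as PRMT4 (7.11 ± 0.113 against 17.6 ± 2.28 FPKM). KMT2C (6.82 ± 0.299 against 2.50 ± 0.655 FPKM) and KMT2E, counted here by its name (12.0 ± 0.192 against 5.06 ± 0.278 FPKM), fell. Of 9 other JmjC genes 1 rose, 4 fell and 4 did not pass. All positive libraries lay above the negative ones for 2 of these genes and below for 3. Their median log2 fold change was -0.046, against 0.004 over all tested genes, so as a set they showed little shift. The largest fall was that of JMJD1C, a relative of KDM3A (49.2 ± 0.288 against 14.3 ± 1.13 FPKM, log2 fold change -1.72 ± 0.0744).

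Transcript length moved with these results. Across the 11585 tested genes with an annotated length, Spearman's rho between the log2 fold change and the longest annotated transcript was -0.27, and across 58 members it was -0.50. Genes are not independent replicates and share their libraries, so these values are descriptions. Among all tested genes, transcripts up to 2000 nt had a median log2 fold change of 0.26 and those longer than 8000 nt one of -0.42. Of the 6 members up to 2000 nt, 2 rose and 0 fell (0 also at an unadjusted p under 0.05 in limma), and of the 16 from there to 4000 nt, 9 rose and 1 fell (SETD3). Of the 11 longer than 8000 nt, 6 fell (KDM3A, KDM5A, KDM5B, KDM7A, KAT6A and SETD2) and 1 rose (HDAC2). Calls of all tested genes were not counted by length, so these counts cannot show a difference from other genes of that length. Medians were formed for ranges up to 2000, 4000, 6000 and 8000 nt and above. In that order the members had 0.29, 0.22, -0.12, -0.18 and -0.77. All tested genes had 0.26, 0.12, -0.094, -0.28 and -0.42.

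With the trend over length removed, 16 members rose and 15 fell. KDM3A (-1.27), KDM5B (-1.01), KDM7A (-0.92), HDAC2 (1.41), KAT2A (1.08), PRMT7 (1.07) and HDAC11 (0.94) kept their calls. So did, at log2 fold changes over 1.5 times smaller, KDM5A (-0.33), KDM2A (-0.26), KDM5C (-0.24), KAT6A (-0.42), SETD2 (-0.51), SETD7 (-0.48) and PRMT1 (0.38). HDAC1 (-0.0089), HDAC5 (-0.22, adjusted p = 0.0817), KDM6A (-0.28, adjusted p = 0.0932), PRMT6 (0.47, adjusted p = 0.0878) and SETD6 (0.25, adjusted p = 0.0588) lost theirs. HDAC8 (0.43, adjusted p = 0.019995) and KDM4A (0.28, adjusted p = 0.0465) passed as higher and SIRT6 (-0.36, adjusted p = 0.0261) as lower. Falls on the partner list went from 44 to 23. With a trend over GC content removed instead, SIRT1 (-0.097), SETD3 (-0.21), KDM6A (-0.30), SMYD4 (0.45) and SMYD5 (0.43) lost their calls, HDAC5 stood at -0.67, KDM2B at 0.33 and PRMT1 at 0.40. Members that did not pass with the deposited values but passed here were HDAC7 (-0.36, adjusted p = 0.0265), HDAC10 (-0.47, adjusted p = 0.0208), KDM4B (-0.65, adjusted p = 0.00538), SIRT6 (-0.50, adjusted p = 0.00648) and SIRT7 (-0.37, adjusted p = 0.00544) as lower, and HDAC8 (0.51, adjusted p = 0.00993), PRMT3 (0.55, adjusted p = 0.00443) and SETD9 (0.64, adjusted p = 0.0284) as higher. This gave 18 members higher and 18 lower.

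Several members share sequence with a neighbouring gene on the other strand, so their reads and the neighbour's may not be told apart if strand was not used in counting. In the GENCODE 29 annotation, exons of 12 members overlap exons of another listed gene on the opposite strand. The overlaps run from 32 nt (HDAC7 with SLC48A1) to 1086 nt (SETD6 with CNOT1). Those of members that changed include 911 nt of PRMT5 with PRMT5-AS1, 439 nt of KDM2B with RNF34, 330 nt of HDAC11 with HDAC11-AS1, 229 nt of PRMT7 with SMPD3, 219 nt of SIRT3 with PSMD13, 107 nt of KDM5A with CCDC77 and 40 nt of SIRT2 with NFKBIB.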

How the data were processed

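Poly(A)-selected RNA libraries (TruSeq Stranded mRNA kit, per the labels' protocols) of 3 ZsGreen-negative and 3 ZsGreen-positive samples of HCT116 cells were grouped by the labels' description. The authors deposited 1 FPKM value for each of 26255 gene symbols per library, per the file headers. TopHat2 2.1.1, Bowtie2 2.2.8, SAMtools 0.1.18, Cuffdiff 2.2.1 and the build hg19 are named, per the submitters' processing notes. No source used here gives their settings, the gene annotation, how libraries were scaled or whether strand was used.

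Genes averaging 1 FPKM or more over the 6 libraries were fitted together on log2(FPKM + 1) in limma 3.58.1 under R 4.3.3. The two-sided moderated test allowed a trend of variance with mean and had 4 residual and 3.22 prior degrees of freedom. The Benjamini-Hochberg adjustment ran over all 12213 genes, with a threshold of 0.05. The fit was also run on simulated data in which both groups had the spread of the negative libraries. Such data cannot show how the test behaves with the wider spread among positive libraries. Ratios, shares and sums were computed in Python 3.11.15 with pandas 2.3.3. Depth was estimated from the commonest low product of FPKM and length among GENCODE 29 genes with a single transcript of 1000 nt or more. The estimate takes FPKM as divided by each library's own total. Of genes at up to 4 such steps, 74.9% to 78.3% lay within 0.2 of a whole step in the negative libraries and positive replicate 1, and 62.8% and 63.0% in positive replicates 2 and 3, so no count model was run.

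The members, the partner and pair lists and the tests were chosen with earlier results of these data known. Values per library are given for members called with a log2 fold change of at least 1 in size, and in each family for the most abundant gene and the largest called rise and fall. Other members are given by group means, and from each partner list up to 2 rises and 2 falls are named, with ASH2L, CREBBP, NCOA1 and NCOA2 added after their values were seen. Alternatives were pseudocounts of 0.1 and 5, other filters (0 and 5 FPKM), a common sum of 1000000, quantile normalisation, a fit without the trend, a replicate block, leaving out each library, leaving out positive replicates 2 and 3 together and, chosen after seeing the data, removing a smooth trend over transcript length or GC content.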

Additional observations from a re-analysis of the deposited data

How the results depend on the processing

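Across the 17 alternatives, as far as each tested them, 24 of the 33 called members kept their call and direction, 12 of 17 that rose and 12 of 16 that fell. The counts of 17 members higher and 16 lower stayed within 1.5 times in each: for example 13 and 18 with quantile normalisation, and 13 to 18 higher and 12 to 18 lower when each library was left out. Of the partner genes 44 fell, but 25 after rescaling to a sum of 1000000 and 23 with the length trend removed. The cause was not tested. HDAC1 turned from 0.16 to -0.059 with quantile normalisation and -0.0089 with the length trend removed. PRMT9, not called at 0.037, stood at -0.24 without positive replicates 2 and 3. Same-numbered libraries did not deviate together (correlations across genes of -0.03 to -0.021), and none correlated best with its own number. All pairs of a negative and a positive library lay between -0.030 and 0.029. Values this small cannot say whether same-numbered libraries shared a culture or batch, and the labels do not say so. The replicate block gave 15 members higher and 16 lower, 31 and 41 partner genes, and 6915 genes in all (7258 without it). With a pseudocount of 5 no member call was lost, but log2 fold changes of low genes shrank over 1.5 times, as for KAT2A (0.69), KDM7A (-0.79) and HDAC11 (0.58). Values under about 1 FPKM rest on few fragments where the transcript is short, and the wider spread among positive libraries limits small differences.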
